A study of Mus musculus with 8 samples.

Results

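The expression response of the yolk sac to Notch1 activation was examined on the 2 arrays labelled as Notch1 activated and the 2 wild type arrays of the same cross, 4 of the 8 arrays in the series. The activated embryos (EC-N1ICD, genotype Tie2 Tg/0; ROSA +/N1ICD) and the wild type embryos (Tie2 0/0; ROSA +/+) were of the C57BL6 strain, from males with 1 copy of the Tie2-Cre transgene and females with 1 copy of the Rosa N1ICD allele. Total RNA of whole yolk sac at E9.5 was hybridised to single-channel Affymetrix arrays. Whether each array stands for its own embryo is not written out in the labels, and the p-values measure only the spread between these samples, which may be technical. The other 4 arrays of the series, of endothelial Rbpj loss (EC-Rbpj-KO, Tie2-Cre; Rbpj flox/flox, mixed strain) and its wild type, for which no genotype is given, entered the statistical fit and 1 comparison at the end.

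Notch receptors are cut inside the membrane after they bind a ligand on a neighbouring cell, and the freed intracellular domain (ICD) moves to the nucleus, where it joins the DNA-binding protein RBPJ and switches on target genes. The Rosa N1ICD allele holds the intracellular domain of Notch1 behind a stop cassette, and the Tie2-driven Cre recombinase removes that cassette, so cells of the Tie2 lineage carry the activated receptor without a ligand. Tie2 is expressed in endothelium and also in blood cell precursors, so the lineage is not endothelium alone. The yolk sac is made of a visceral endoderm layer that absorbs and secretes proteins, a mesoderm layer with mesothelium and smooth muscle precursors, endothelial vessels, and the first blood cells, and RNA of the whole tissue holds all of them.

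Values given for a gene are linear signals on replicates 1 and 2 of a group, in that order, with n = 2 arrays per group throughout, and the array median is that of all probe sets on an array. Xist, expressed from the inactive X of females, gave 3600 and 3730 in EC-N1ICD against 96 and 96 in wild type, while the Y-linked Eif2s3y gave 9 and 9 against 702 and 837. Female transcripts therefore marked both EC-N1ICD arrays and male transcripts both wild type arrays, and sex and genotype cannot be told apart in these 4 arrays. Of 354 tested X-linked genes, 3 changed (Xist, Tmem255a and Wnk3), and their median log2 fold change was 0.05, against 0.01 over all tested genes. RNA quality, read from probe sets at both ends of a transcript (3' over 5'), also moved with genotype: Actb ratios were 1.72 and 1.75 in EC-N1ICD against 2.10 and 2.34, and Gapdh ratios 2.43 and 2.48 against 3.12 and 2.76. Its part in the results was not tested. The title of EC-N1ICD replicate 1 starts with a number unlike that of the other 3, for a reason the labels do not give. Notch1 itself gave 455 and 538 in EC-N1ICD yolk sacs against 453 and 335, which missed the test (0.34 higher on the log2 scale, adjusted p = 0.554), and whether the probes can bind the transgene RNA is not known here.

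Marker genes of the yolk sac layers were present. Afp, the fetal albumin-like protein of visceral endoderm, gave 27271 and 27701 in EC-N1ICD yolk sacs against 26979 and 29306, and Cubn, an endocytic receptor of the same layer, had 19269 and 18635 against 19542 and 19609. The groups overlapped for Afp, and for Cubn both EC-N1ICD arrays were lower by a small margin (log2 -0.05, adjusted p = 0.889). The embryonic globin gene Hbb-y gave 20182 and 25388 against 25488 and 27805. Of endothelial markers, Tek, the angiopoietin receptor, gave 484 and 371 against 463 and 302, and Kdr, the main VEGF receptor, had 675 and 837 against 1122 and 655. Summed signals of genes from tissues that dissection could carry over were 950 and 1571 against 897 and 913 for trophoblast and decidua, 1164 and 1163 against 919 and 935 for embryo neural and somite tissue, and 1491 and 1347 against 1079 and 1004 for adult heart and allantois. All 3 were higher in EC-N1ICD without overlap, and their part in the results was not tested.

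Of 10913 genes tested, 65 changed in EC-N1ICD yolk sacs at an adjusted p under 0.05 from limma (0.596% of tested genes), of which 41 rose (0.376%) and 24 fell (0.22%). All 65 had both EC-N1ICD arrays beyond both wild type arrays, which by itself is common, since 23.7% of all tested genes had both above and 18.9% both below. At an unadjusted p under 0.05 there were 1309 genes, 712 higher and 597 lower. By a size rule, at least a 2-fold ratio of geometric means with no overlap between the groups, 114 genes were higher (1.04%) and 81 lower (0.742%). The median log2 fold change of all tested genes was 0.01. The calls depended on single arrays. Without EC-N1ICD replicate 1 there were 7, of which Amacr, Calml4, Fbp2, Igfbp3, Nrarp and Upk3a were among the 65. Leaving out wild type replicate 1 gave 14 and wild type replicate 2 gave 16, each holding 11 of the 65, and leaving out EC-N1ICD replicate 2 gave 58 (19 up and 39 down), holding 35. Without EC-Rbpj-KO replicate 1 or 2 there were 137 or 140, each holding all 65. By the size rule, 195 genes became 300 without EC-N1ICD replicate 2. With embryo sex as a term, which in this series can be estimated from the EC-Rbpj-KO arrays only, 15 genes passed, and 4 of the 65 remained (Nrarp, Calml4, Actc1 and Gucy2c). With the first number of each title as a replicate block, which leaves EC-N1ICD replicate 2 alone against the wild type arrays, 26 passed, of which 19 were among the 65. Each of the 65 kept its direction under every alternative fitted. Called genes that the study picked on these samples include Vegfc, Igfbp3, Vtn, Fbn2, Cd44, Ch25h, Jun, Lhfp, Calml4, Nudt4, Rnase4, Oit3 and Tfrc. The direction of such genes is not independent evidence, here or where they are described below.

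**Figure D1:**
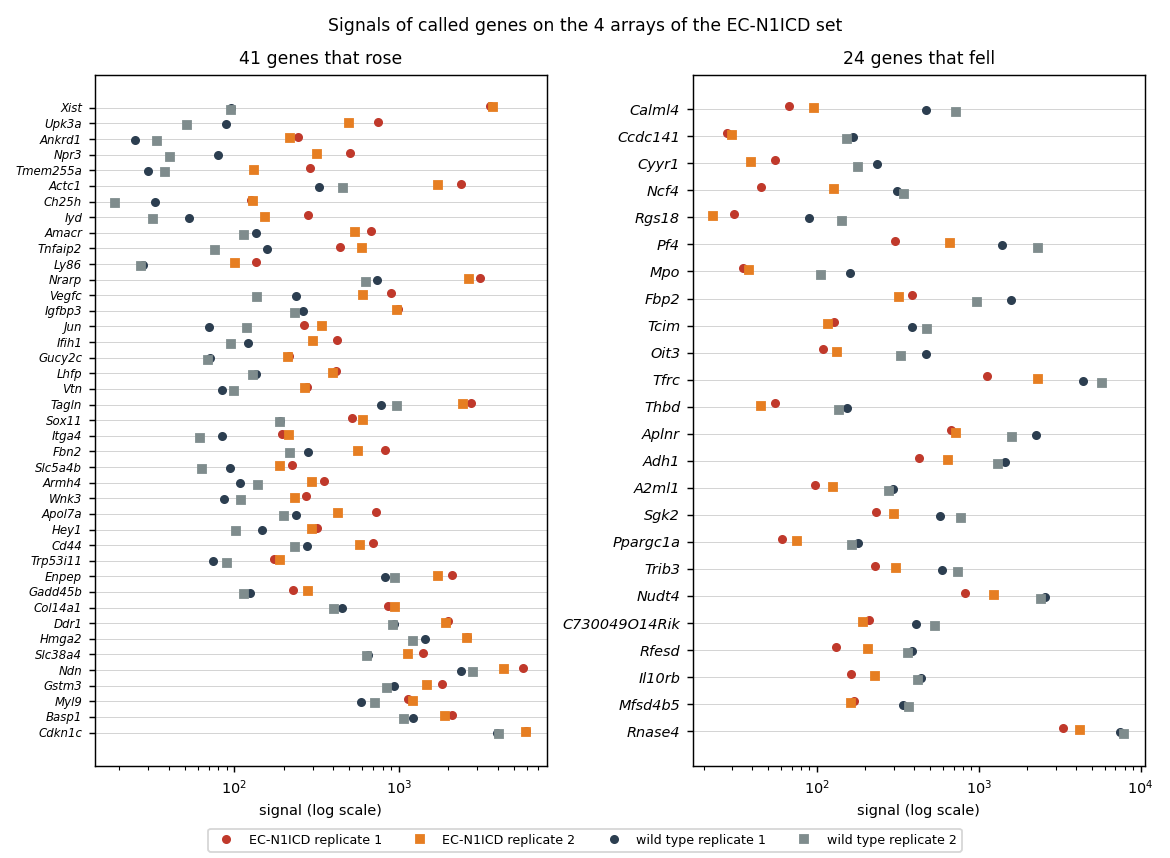
Signals (log scale) of the 41 genes that rose and the 24 that fell on the 2 EC-N1ICD arrays (red circle, orange square) and the 2 wild type arrays (dark circle, grey square), in order of log2 fold change. In each gene both EC-N1ICD arrays lie on 1 side of both wild type arrays, from a 38.2-fold rise of Xist to a 7.32-fold lower signal of Calml4.

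Among genes of the Notch pathway, Nrarp, a feedback inhibitor of Notch signaling that binds the intracellular domain, had the smallest adjusted p of the 65 genes. It gave 3112 and 2648 in EC-N1ICD yolk sacs against 735 and 628, or 2.08 ± 0.16 (SE) on the log2 scale (n = 2 per group, adjusted p = 0.000385), or 4.23-fold. The groups were far apart relative to the spread within them. Its second probe set gave 505 and 450 against 229 and 265, or 1.94-fold (adjusted p = 0.142 in a limma fit of single probe sets). Hey1, a hairy-related repressor induced by Notch in arterial endothelium, rose 2.51-fold, from 147 and 103 to 319 and 298 (adjusted p = 0.0364). Of 20 tested pathway members, these were the 2 that changed, and the median log2 fold change of the list was 0.07. The study picked Nrarp, Hey1 and Heyl on these samples, so their direction is not independent evidence. Hes1, the founding Notch target of the hairy family, gave 554 and 514 against 501 and 370, a log2 fold change of 0.31 that did not pass the test (adjusted p = 0.597), and Notch3, a receptor of mural cells, was 0.71 higher on the log2 scale (adjusted p = 0.271). Heyl, a second hairy-related target, lay below the filter on signal with the probe set used, at 71 and 103 against 49 and 33. Another Heyl probe set gave 90 and 119 against 28 and 36, or 3.26-fold. It missed the threshold in a limma fit of single probe sets (adjusted p = 0.0627). The remaining one was near background, at 30 and 22 against 25 and 18.

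Letters of the RBPJ recognition core were searched in the 300-base windows around RefSeq gene starts (GRCm38.p6, 250 bases before the start and 50 from it), because RBPJ is the DNA-binding partner of the activated receptor. TGGGAA, on either strand, stood in the windows of 13 of the 34 rising genes that had a window (38.2%), in 2 of 15 falling genes with one (13.3%) and in 2315 of the 8871 tested genes with one (26.1%), and 25.6% of all windows held it. The longer form GTGGGAA, which contains TGGGAA, stood in windows of 2 rising genes (5.9%), in 0 of the falling genes and in 7.0% of tested genes, so the share among rising genes was no higher than that of all tested genes. The 2 genes that hold it, Ch25h, which makes an oxysterol from cholesterol, and Iyd, which recycles iodide from iodotyrosines, are printed 5′ to 3′ along the gene with the GTGGGAA match in capitals. In Ch25h, at chr19:34475099-34475398 on the minus strand, the match begins 81 bases before the annotated start, and in Iyd, at chr10:3540024-3540323 on the plus strand, it begins 16 bases before it. A match of letters is a description and not a measured site.
Ch25h: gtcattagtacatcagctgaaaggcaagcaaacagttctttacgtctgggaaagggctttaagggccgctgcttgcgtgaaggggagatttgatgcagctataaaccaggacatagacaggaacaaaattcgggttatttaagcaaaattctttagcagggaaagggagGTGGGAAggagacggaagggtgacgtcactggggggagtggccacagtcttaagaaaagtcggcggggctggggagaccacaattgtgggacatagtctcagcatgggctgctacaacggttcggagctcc
Iyd: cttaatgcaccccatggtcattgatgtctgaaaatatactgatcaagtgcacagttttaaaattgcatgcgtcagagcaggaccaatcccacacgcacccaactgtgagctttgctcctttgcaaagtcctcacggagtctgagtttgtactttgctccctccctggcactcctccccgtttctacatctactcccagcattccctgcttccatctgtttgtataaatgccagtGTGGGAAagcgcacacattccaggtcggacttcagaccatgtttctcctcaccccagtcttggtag
Ch25h gave 127 and 130 in EC-N1ICD yolk sacs against 33 and 19, a 5.13-fold rise (adjusted p = 0.0156), and Iyd had 280 and 154 against 53 and 32, a 5.04-fold rise (adjusted p = 0.0419). Both wild type values of Ch25h were under the median of their array, so background limits its fold.

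Genes of the contractile cytoskeleton were mostly higher. Of 16 tested smooth muscle genes 15 were higher and 1 lower, 10 of them with both EC-N1ICD arrays above both wild type arrays (23.7% of all tested genes), and the list median was 0.53 against 0.01 over all tested genes (0.56 on replicate 1 and 0.45 on replicate 2). Tagln is a gene the study picked on these samples, so the count is not independent evidence of a direction. The 2 that passed the test were Tagln, the actin-bundling protein transgelin, and Myl9, the regulatory light chain of smooth muscle myosin. Tagln gave 2728 and 2454 in EC-N1ICD yolk sacs against 783 and 981, or 1.56 ± 0.17 (SE) on the log2 scale (adjusted p = 0.00275). The groups were separated by more than the range within either. Myl9 rose 1.81-fold (adjusted p = 0.0481). Acta2, smooth muscle actin, gave 14640 and 13687 against 7480 and 8684, which did not overlap, but its log2 fold change of 0.81 missed the threshold (adjusted p = 0.0651). Tpm1, an actin-coating tropomyosin, was 1.78-fold higher at an adjusted p of 0.0531, and Actg2, enteric smooth muscle actin, was 2.13-fold higher at 0.193.

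Among 7 tested genes of striated muscle, Ankrd1 and Actc1 rose. Of the 7, 5 were above 0 and 2 below, the lowest at -0.81. Their median was 0.22 (0.36 on replicate 1 and 0.03 on replicate 2). The study picked Ankrd1 and Myl7 on these samples. Ankrd1, a nuclear ankyrin repeat protein of cardiac muscle and a known target of the Hippo effector YAP, gave 243 and 218 in EC-N1ICD yolk sacs against 25 and 34, or 2.98 ± 0.41 (SE) on the log2 scale (adjusted p = 0.0124), and its second probe set gave 3.17. Both wild type values were under the median of their array, so background limits this fold. Actc1, cardiac actin, gave 2369 and 1726 against 326 and 460, or 2.38 ± 0.34 (SE) on the log2 scale (adjusted p = 0.0145). Other heart genes were higher beside them but lay under the filter on mean signal and were not tested: Myl7, atrial myosin light chain, had 116 and 201 against 27 and 23, Myh6, the alpha heavy chain of cardiac myosin, had 59 and 93 against 12 and 16, Tnnt2, cardiac troponin T, had 131 and 108 against 41 and 41, and Tbx5, a heart field factor, had 103 and 123 against 26 and 31. In each of these the EC-N1ICD arrays were higher without overlap, as in 23.7% of all tested genes. They were chosen after their values were seen, so they do not stand for the list. The atrial peptide gene Nppa had 20 and 17 against 22 and 18, and the heart factor Nkx2-5 had 85 and 68 against 80 and 95. Over the whole list of 25 sarcomere genes, 10 were under the array median on all 4 arrays, and the summed signal was 4884 and 4169 against 2123 and 2216. Actc1 alone held 2369 and 1726 of that sum, against 326 and 460, so the sum largely restates its rise. The list of adult heart and allantois markers, 1 of the checks of dissection, was also higher on both EC-N1ICD arrays in summed signal. The part of heart tissue in the rises of Ankrd1 and Actc1 was not tested.

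**Figure D2:**
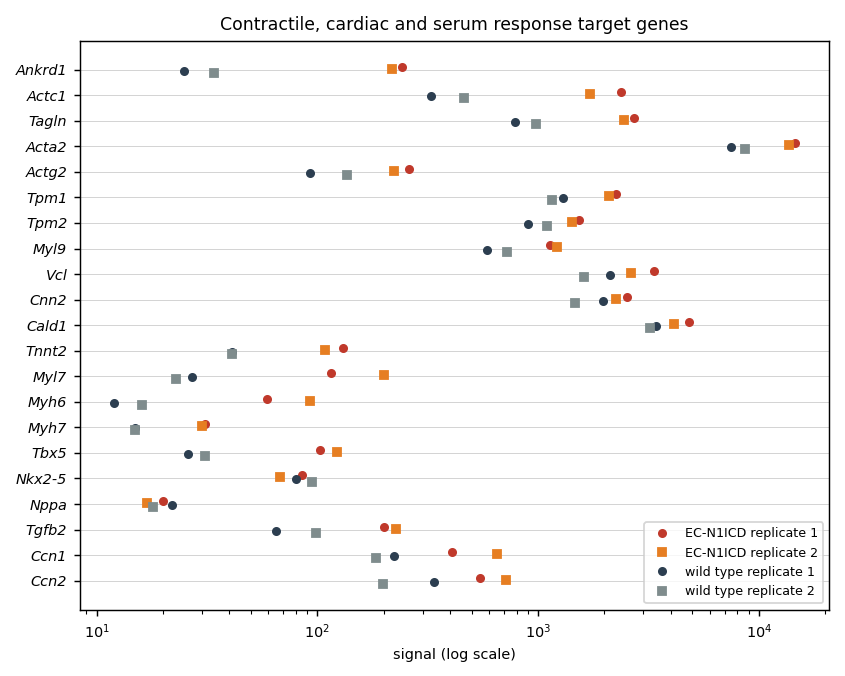
Signals (log scale) of smooth muscle, cardiac and serum response target genes on the 2 EC-N1ICD arrays (red, orange) and the 2 wild type arrays (dark, grey). Acta2 stands at 14640 and 13687 in EC-N1ICD against 7480 and 8684. Myl7, Myh6, Myh7 and Tnnt2 are higher without overlap, as are 23.7% of all tested genes, and Nppa and Nkx2-5 overlap.

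Targets of the Hippo and serum response pathways, which read cell tension and density, lay in the same direction. Of 25 tested, Ankrd1 and Gadd45b rose, 20 were above 0, and the median was 0.40 (0.37 on replicate 1 and 0.45 on replicate 2). The study picked Ankrd1, Ccn1, Ccn2 and Tgfb2 on these samples, so these counts are not independent evidence of a direction. Gadd45b, a stress-induced regulator of growth arrest, gave 228 and 282 against 125 and 114, a 2.12-fold rise (adjusted p = 0.0272). The matricellular genes Ccn1 and Ccn2 were 2.54-fold and 2.41-fold higher without overlap, but neither passed (adjusted p = 0.177 and 0.214). Cdc42ep3, an effector of a small GTPase, went the other way, with a log2 fold change of -1.03 (adjusted p = 0.0531).

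Among secreted signals, Vegfc, the ligand of the lymphatic VEGF receptor, gave 899 and 605 in EC-N1ICD yolk sacs against 239 and 138, a 4.06-fold rise (log2 2.02, standard error 0.29, adjusted p = 0.0145). Its other probe sets gave log2 fold changes of 1.73 and 1.35 in the same direction. Igfbp3, which binds insulin-like growth factors in blood, gave 985 and 981 against 261 and 234, a 3.98-fold rise (adjusted p = 0.00242), with 1.96 on the log2 scale from its second probe set. The 2 EC-N1ICD arrays lay within 4 signal units of each other. Of 16 tested genes of the insulin-like growth factor system it was the 1 that changed, and the list median was 0.27 (-0.04 with embryo sex as a term), while Igf2, the main fetal growth ligand, was 0.18 higher on the log2 scale (adjusted p = 0.51). Igfbp5, another binding protein, was 2.04-fold higher (adjusted p = 0.0658).

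Receptors changed as well. Npr3, the clearance receptor that removes natriuretic peptides, gave 506 and 317 in EC-N1ICD yolk sacs against 80 and 41, or 2.81 ± 0.43 (SE) on the log2 scale (adjusted p = 0.0156), and its other 2 probe sets were near background. Gucy2c, the membrane guanylate cyclase that guanylin peptides activate, had 216 and 213 against 71 and 69, a 3.06-fold rise (adjusted p = 0.0145), with almost no spread within groups. Calcrl, the receptor of adrenomedullin, had a log2 fold change of -0.81 that did not pass (adjusted p = 0.0722). Aplnr, the apelin receptor that marks venous endothelium, gave 672 and 725 against 2248 and 1602, or -1.44 ± 0.24 (SE) on the log2 scale (adjusted p = 0.0198). Its second probe set gave -0.64 on that scale.

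The TGF-beta and BMP list had no call among 34 tested genes, and its median of 0.11 differed little from that of all tested genes and was -0.28 with embryo sex as a term. The 4 with the smallest p were all higher: Tgfbi, an adhesion protein induced by TGF-beta, by 1.81-fold (adjusted p = 0.0837), Id4, an inhibitor of helix-loop-helix factors, by 3.32-fold (adjusted p = 0.102), Tgfb2 by 2.66-fold (adjusted p = 0.159) and Bmp2 by 2.38-fold (adjusted p = 0.177). Id4, Tgfb2 and Bmp2 were picked by the study on these samples, so the shared direction of the 4 is not independent evidence. Of 14 tested genes of the Wnt pathway none passed the test, although 12 were above 0. By the size rule 4 were higher (Apcdd1, Sfrp1, Dkk1 and Wnt2), against 1.04% of all tested genes. The list median was 0.64 on the log2 scale, with 0.60 on replicate 1 and 0.66 on replicate 2. Apcdd1, a membrane inhibitor of Wnt, gave 540 and 522 against 288 and 166 (adjusted p = 0.0531). Wnt4, a ligand, had 197 and 217 against 116 and 133 (adjusted p = 0.12). Apcdd1, Dkk1, Sfrp1 and Wnt4 are genes the study itself picked on these samples, so the Wnt counts are not independent evidence of a direction.

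Single adhesion and matrix genes rose. Fbn2, fibrillin 2 of elastic microfibrils, gave 822 and 564 in EC-N1ICD yolk sacs against 279 and 217 (2.77-fold, adjusted p = 0.0156), but its second probe set gave 1.36-fold. Itga4, the alpha subunit of the integrin that binds VCAM1, rose 2.84-fold (196 and 215 against 84 and 62, adjusted p = 0.0468), the 1 called of 15 tested integrins, whose median was -0.15 (0.18 with embryo sex as a term). Cd44, the hyaluronan receptor, rose 2.50-fold, from 276 and 234 to 698 and 578, but its next probe set by signal gave 1.63-fold. Ddr1, a receptor kinase for collagen, rose 2.11-fold, from 930 and 922 to 1975 and 1925, although of its 7 other probe sets 2 had a lower signal. Of these 2, 1 was 3.18-fold lower, at 47 and 181 in EC-N1ICD against 207 and 415. The rest were 1.01-fold to 2.12-fold higher. Col14a1, a collagen associated with fibrils, rose 2.12-fold (857 and 953 against 452 and 403, adjusted p = 0.0337), and it was the 1 called among 24 tested collagen chains, whose median was 0.03. Vtn, vitronectin of plasma and matrix, gave 276 and 269 against 84 and 100, a 2.97-fold rise (adjusted p = 0.00719), and its second probe set gave 2.94-fold.

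Red cell genes had lower signals, and by how much depended on the EC-N1ICD array and on the fit. Fewer cells of a type and less RNA per cell cannot be told apart in such tissue RNA. All 18 tested red cell membrane genes were below 0, but none passed the test. By the size rule 7 were lower, against 0.742% of all tested genes. The list median was -0.77, with -1.58 on EC-N1ICD replicate 1 and -0.05 on replicate 2. With embryo sex as a term the median turned to 0.12. Slc4a1, the band 3 anion exchanger, gave 449 and 2559 in EC-N1ICD yolk sacs against 3976 and 2835, so replicate 2 lay close to the lower wild type array and replicate 1 far below it. The summed signal of the list was 3347 and 10745 against 14597 and 11523. The heme and globin list of 18 tested genes had a median of -0.49 (-0.75 and -0.25), with 16 below 0, and Alas2, which starts heme synthesis in red cells, had 409 and 1694 against 2402 and 2815 (log2 -1.64, adjusted p = 0.211). The embryonic globin Hba-x had 7698 and 18775 against 23128 and 22936. Gata1, the master factor of red cells and platelets, had 245 and 705 against 939 and 922 (adjusted p = 0.247), and of 16 tested erythroid factors 15 were below 0.

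Single blood genes nevertheless passed the test. Tfrc, the transferrin receptor that brings iron into red cell precursors, gave 1121 and 2333 in EC-N1ICD yolk sacs against 4425 and 5779, or -1.64 ± 0.30 (SE) on the log2 scale (adjusted p = 0.0337). Its other 5 probe sets had log2 fold changes from -1.62 to -0.67. Pf4, platelet factor 4, had 304 and 668 against 1400 and 2324, or -2.00 ± 0.34 (SE) on the log2 scale (adjusted p = 0.0216). Of 14 tested megakaryocyte genes 13 were below 0, with a list median of -0.66 (-0.87 on replicate 1 and -0.41 on replicate 2). The 1 above 0 was higher at an unadjusted p under 0.05 from limma. The summed signal of the list overlapped, at 10520 and 12523 in EC-N1ICD against 10887 and 12602 in wild type. The study picked Pf4 and Ppbp on these samples, so the count of 13 is not independent evidence of a direction. Ppbp, another platelet chemokine, had 15 and 85 against 113 and 297 (adjusted p = 0.168). Rgs18, a regulator of G protein signals in platelets, had 31 and 23 against 90 and 144, or -2.09 ± 0.40 (SE) on the log2 scale (adjusted p = 0.0421), both EC-N1ICD values being under the median of their array. The EC-N1ICD arrays were below both wild type arrays in each of these.

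Myeloid genes split. Mpo, myeloperoxidase of granulocyte precursors, gave 35 and 38 in EC-N1ICD yolk sacs against 160 and 107 (log2 -1.84, standard error 0.27, adjusted p = 0.0156) and was under the array median on both EC-N1ICD arrays, and Ncf4, a subunit of the phagocyte NADPH oxidase, had 45 and 128 against 315 and 346 (log2 -2.12, adjusted p = 0.0337). Ly86, the partner of a toll-like receptor homolog, went up, with 136 and 101 against 28 and 27 (4.26-fold, adjusted p = 0.0290), though both wild type values were under the median of their array. Among 17 tested macrophage genes Ly86 was the 1 called. By the size rule 6 were higher and 1 lower, against 1.04% and 0.742% of all tested genes. The list median was 0.41 (0.51 on replicate 1 and 0.21 on replicate 2). That median turned to -0.14 with a filter at the 60th percentile of mean signal and to -0.01 with the mean of all probe sets of a gene. C1qb, a complement subunit made by macrophages, had 119 and 148 against 16 and 51 (adjusted p = 0.0531), and Csf1r, the growth factor receptor of the lineage, had 1293 and 995 against 671 and 730 (adjusted p = 0.228). Fcgr3, an Fc receptor, was 2.13-fold lower (adjusted p = 0.0575).

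**Figure D3:**
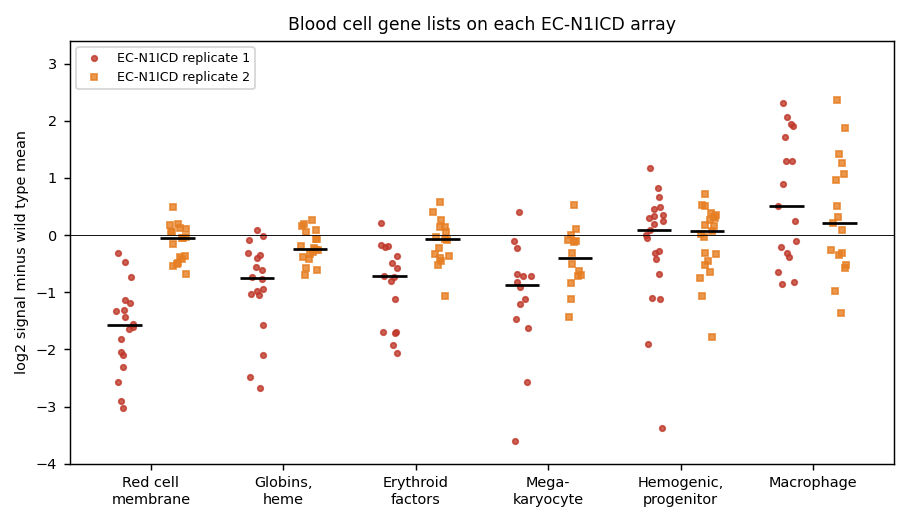
Log2 signal minus the mean of the 2 wild type arrays for each tested gene of 6 blood cell lists, on EC-N1ICD replicate 1 (red circles) and replicate 2 (orange squares), with black bars at the medians. The red cell membrane median is -1.58 on replicate 1 and -0.05 on replicate 2, and the macrophage median is 0.51 and 0.21.

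Interferon response genes, which cells switch on after sensing viral or stray nucleic acid, included Ifih1, a sensor of double-stranded RNA. It gave 421 and 302 in EC-N1ICD yolk sacs against 122 and 96, a 3.29-fold rise (adjusted p = 0.0145). It was the 1 called of 28 tested genes, and the median was 0.17. By the size rule 5 were higher and 0 lower, against 1.04% and 0.742% of all tested genes. The summed signal of the list overlapped, at 11150 and 12654 in EC-N1ICD against 12624 and 9162 in wild type. Ifit3, an interferon-induced inhibitor of translation, was 3.51-fold higher (adjusted p = 0.0531), and Irgm1, a GTPase of the same response, had 196 and 89 against 64 and 59 (adjusted p = 0.202). Tnfaip2, a gene that tumour necrosis factor induces, rose 4.68-fold from 158 and 76 to 442 and 594 (adjusted p = 0.0183), but a second probe set gave 176 and 182 against 141 and 111 (1.43-fold, adjusted p = 0.541). The study picked Ifih1 and Tnfaip2 on these samples.

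Endothelial and flow-responsive genes were mixed. None of 30 tested pan-endothelial genes passed the test, 15 were above and 15 below 0, and their median was 0.01. Across the alternatives fitted that median ran from -0.54 to 0.20. The summed signal of the list was 14374 and 13824 in EC-N1ICD against 16283 and 12187 in wild type. The 4 with the smallest p went both ways. Vwf, the platelet-binding protein of endothelium, was 2.24-fold higher (adjusted p = 0.0538) and Esm1, a tip cell proteoglycan, 2.85-fold higher (adjusted p = 0.193), whereas Stab2, a scavenger receptor, was 2.47-fold lower (adjusted p = 0.168) and Cd34, a sialomucin of endothelium and progenitors, 1.64-fold lower (adjusted p = 0.152). Thbd, thrombomodulin, gave 55 and 45 in EC-N1ICD yolk sacs against 154 and 137, or -1.55 ± 0.27 (SE) on the log2 scale (adjusted p = 0.0314). It was the 1 called of 15 flow-responsive genes, and Klf2, the factor that laminar flow induces, had 85 and 56 against 151 and 116 (adjusted p = 0.267). Cyyr1 fell by 2.15 on the log2 scale, with 55 and 39 against 236 and 179 (adjusted p = 0.0156), and its second probe set was near background.

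Genes of the visceral endoderm and of metabolism changed in both directions. The medians of 37 plasma protein genes and 20 lipid export genes were -0.03 and -0.06. Calml4, a calmodulin-like protein of microvilli, gave 67 and 96 in EC-N1ICD yolk sacs against 473 and 729, the largest fall of the 24 (log2 -2.87, standard error 0.26, adjusted p = 0.000935). Fbp2, a fructose bisphosphatase of the gluconeogenic pathway, had 385 and 321 against 1590 and 972 (log2 -1.82, adjusted p = 0.0052), and Adh1, an alcohol dehydrogenase that also oxidises retinol, had 426 and 643 against 1461 and 1326 (log2 -1.41, adjusted p = 0.0156). In all 3 the EC-N1ICD arrays were lower without overlap. Ppargc1a, the coactivator that drives mitochondrial biogenesis, had 61 and 75 against 180 and 166 (log2 -1.35, adjusted p = 0.0156), and its other 4 probe sets were lower as well. Oit3, a zona pellucida domain protein, had 110 and 134 against 473 and 331 (log2 -1.70, adjusted p = 0.012). Trib3, a stress pseudokinase, Sgk2, a serum-regulated kinase family member, A2ml1, a protease inhibitor, Rnase4, a ribonuclease, and Nudt4, a phosphohydrolase, fell by 1.04 to 1.37 on the log2 scale.

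Upward, Upk3a, a plaque protein of the urothelium, gave 751 and 495 in EC-N1ICD yolk sacs against 89 and 52, the largest rise after Xist (log2 3.16, standard error 0.33, adjusted p = 0.00242). Amacr, a racemase of branched-chain fatty acids, had 673 and 538 against 136 and 114 (4.83-fold, adjusted p = 0.00273). Slc5a4b, of the sodium and sugar cotransporter family, had 223 and 189 against 94 and 64 (2.65-fold), and Enpep, the aminopeptidase that cleaves angiotensin, had 2093 and 1728 against 827 and 948 (2.15-fold, adjusted p = 0.0187). The EC-N1ICD arrays were higher without overlap in all 4. Among 172 tested solute carriers other than the mitochondrial family, Slc5a4b and Slc38a4 rose, none fell, and the median was -0.04.

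Regulators of growth and fate made a further group. Sox11, a SoxC factor of progenitor cells, gave 517 and 607 in EC-N1ICD yolk sacs against 189 and 191 (log2 1.56, standard error 0.21, adjusted p = 0.0114), and all 5 of its other probe sets were higher, by 0.83 to 2.43 on the log2 scale. Sox4, its close relative, was 1.63-fold higher (adjusted p = 0.0897). Hmga2, a chromatin protein of fetal growth, had 2607 and 2606 against 1439 and 1221 (1.97-fold, adjusted p = 0.0156), but other probe sets gave 1.51-fold and 1.28-fold. Jun, an AP-1 subunit, had 266 and 342 against 70 and 119 (3.30-fold, adjusted p = 0.0364). Imprinted genes held 3 of the 41 rises, of 25 tested, where 0.376% of all tested genes rose. Ndn, necdin, rose 1.91-fold (5650 and 4368 against 2390 and 2818, adjusted p = 0.0183), Slc38a4, an amino acid transporter, 1.95-fold (adjusted p = 0.0389), and Cdkn1c, an inhibitor of the cell cycle, 1.48-fold (5914 and 5924 against 3944 and 4081, adjusted p = 0.0474). All 3 were under the 2-fold of the size rule. Of the 25, 20 were above 0 and the median was 0.22 (0.25 on replicate 1 and 0.16 on replicate 2). Feedback genes of ERK signaling had no call among 14 tested, with 10 below 0 and a median of -0.16, and the 4 with the smallest p (Spry1, Dusp4, Dusp6 and Etv5) had log2 fold changes from -0.94 to -0.63.

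The remaining called genes belong to none of these groups. Tmem255a, an X-linked membrane protein, gave 288 and 132 against 30 and 38 (5.77-fold, adjusted p = 0.0183), with both wild type values under the array median. Lhfp rose 3.06-fold, Armh4 2.61-fold, Wnk3, a kinase that regulates ion cotransport, 2.59-fold, Apol7a 2.55-fold, Trp53i11 2.21-fold, Gstm3, a glutathione transferase, 1.85-fold and Basp1, a membrane-associated signaling protein, 1.75-fold. Downward, Ccdc141 gave 28 and 30 against 168 and 154 (log2 -2.47, adjusted p = 0.0484), with both EC-N1ICD values under the array median, and Tcim gave 128 and 118 against 386 and 480 (log2 -1.81, adjusted p = 0.00931). Il10rb, a subunit of the interleukin 10 receptor, fell by 1.16 on the log2 scale, Mfsd4b5, a membrane transporter family member, by 1.09, Rfesd by 1.18 and C730049O14Rik by 1.22. In all of these genes the groups did not overlap.

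Large housekeeping families shifted little. Complex I of the respiratory chain had no call among 43 tested genes, with 35 below 0 and a median of -0.16 (-0.19 and -0.13), and ATP synthase and cytochrome c oxidase genes had none among 39, with 36 below 0 and a median of -0.12. Cytosolic ribosomal proteins (42 tested) had a median of -0.10, and mitochondrial ribosomal proteins (76 tested) also -0.10. Proteasome subunits (45 tested) had 0.01. Mitosis genes (29 tested) had 0.15 and replication genes (28 tested) 0.14, with 22 and 23 above 0. Sterol synthesis genes other than Ch25h had none called, and the list median was 0.22, with 16 of 24 above both wild type arrays on both EC-N1ICD arrays, against 23.7% of all tested genes.

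**Figure D4:**
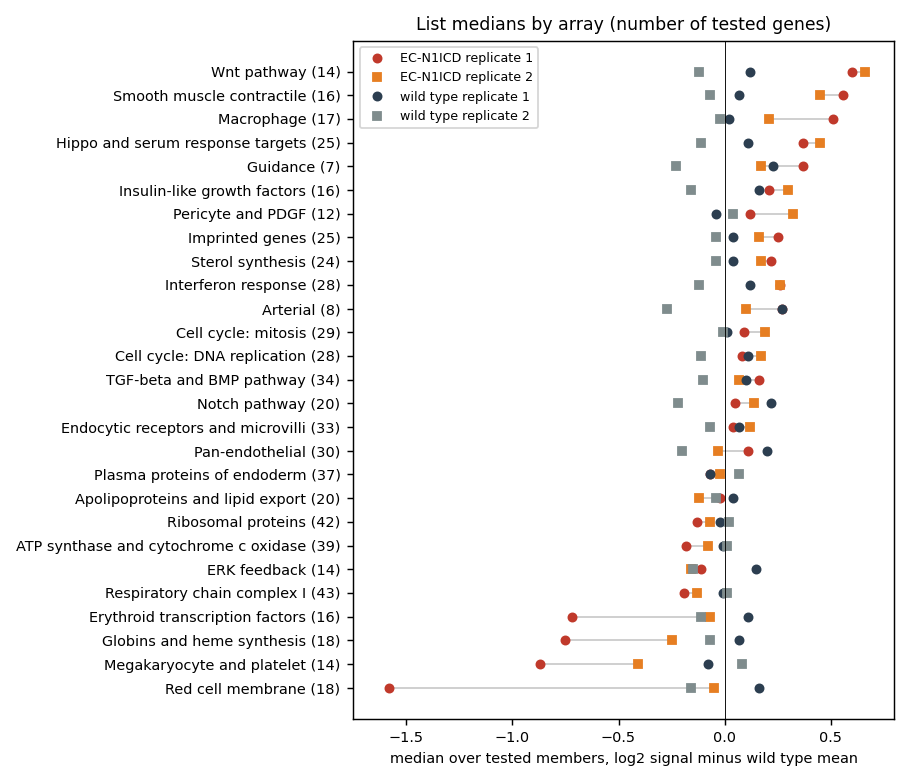
Median over the tested members of 27 gene lists (number of tested genes in parentheses) of log2 signal minus the mean of both wild type arrays, for each array. The smooth muscle median is 0.56 on EC-N1ICD replicate 1 and 0.45 on replicate 2, while the red cell membrane median is -1.58 on replicate 1 and -0.05 on replicate 2.

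The response was set beside that of endothelial Rbpj loss, in which the partner of the activated receptor is removed from the same lineage, with its own 2 mutant and 2 wild type arrays. In that comparison 541 genes (4.96%) changed, and the change of 29 genes (0.266%) differed between the models, 23 with a larger value in EC-N1ICD and 6 with a smaller one. That 29 became 5 without EC-N1ICD replicate 1, 6 and 8 without wild type replicate 1 or 2, 69 and 80 without EC-Rbpj-KO replicate 1 or 2, and 12 and 13 without replicate 1 or 2 of the wild type of that set, and 71 with embryo sex as a term, holding 25 of the 29. Of the 65 genes called in EC-N1ICD, 23 were also called in EC-Rbpj-KO (35.4% of the 65 and 4.25% of the 541). Among these 21 went the same way, 14 higher and 7 lower, and 2, Sox11 and Col14a1, went opposite ways. Xist, at 2005 and 84 on the EC-Rbpj-KO arrays, was not among the 23.

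Among the 65 genes called in EC-N1ICD, Sox11 had the smallest adjusted p for the difference. It rose by 1.56 on the log2 scale in EC-N1ICD and fell by 1.61 in EC-Rbpj-KO (35 and 34 against 102 and 109), a difference of 3.17 (adjusted p = 0.00149 for the difference). Both EC-Rbpj-KO values of Sox11 were under the median of their array (40 and 46), so background limits the size of its fall. Col14a1 differed by 2.06 (adjusted p = 0.0185) and Fbn2, at 1.47 and -0.78, by 2.25 (adjusted p = 0.0185). Npr3 differed by 3.75 (adjusted p = 0.0375), Vegfc by 2.50 (adjusted p = 0.0375) and Amacr by 2.18 (adjusted p = 0.0366). In EC-Rbpj-KO itself Fbn2, Npr3 (log2 -0.94) and Vegfc (log2 -0.47) did not pass the test (adjusted p = 0.0647, 0.252 and 0.396). Vegfc signals there were low, at 54 and 45 against 66 and 71. Wild type Amacr was unlike between the sets, at 136 and 114 in the EC-N1ICD set against 981 and 934 in the other. Its EC-N1ICD signals of 673 and 538 thus lay below the wild type of the other set. Wild type signals of Npr3 (80 and 41 against 212 and 101) and Vegfc (239 and 138 against 66 and 71) were unlike as well. The study picked Sox11, Col14a1, Npr3 and Vegfc on these samples for opposite changes in the models, so their differences are not independent evidence. For Calml4 the difference was -2.57 (adjusted p = 0.0205), and for Oit3 -2.33 (adjusted p = 0.0205). Mpo and Rgs18, which fell in EC-N1ICD, had log2 fold changes of 1.04 and 1.30 in EC-Rbpj-KO that did not pass (adjusted p = 0.0535 and 0.0887), and the differences of -2.88 and -3.39 did. Igfbp3 rose by 1.99 in both, Tfrc fell by 1.64 and by 1.97, and Nrarp rose in both, by 2.08 and 0.75, with a difference of 1.33 (adjusted p = 0.0421). Igfbp3, Tfrc (printed there as Tfric), Nrarp, Fbn2, Calml4 and Oit3 are also genes the study picked on these samples. Their changes are not independent evidence either.

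**Figure D5:**
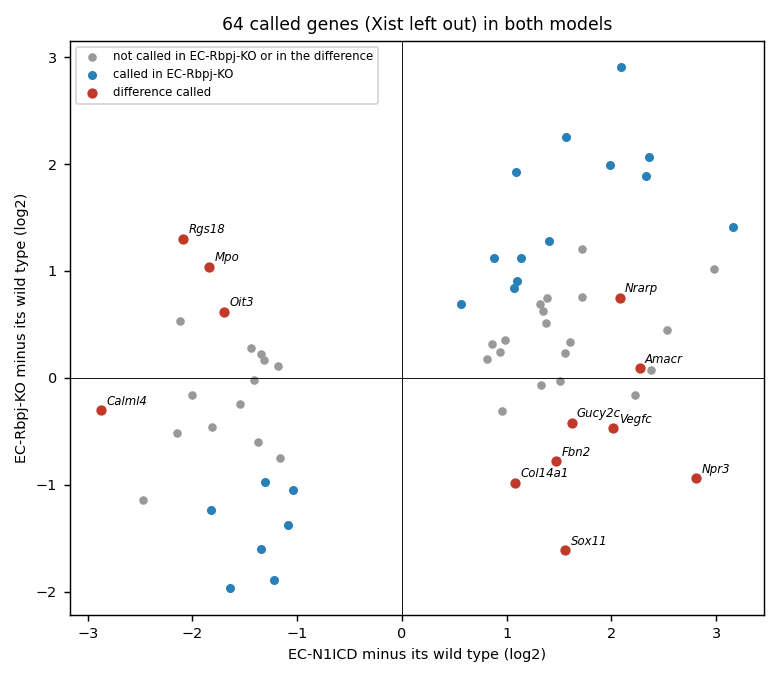
Log2 fold change in EC-N1ICD (horizontal) against that in EC-Rbpj-KO (vertical), each against its own wild type, for the 64 called genes other than Xist. Red genes have a called difference between the models, blue genes were called in EC-Rbpj-KO without a called difference, and Sox11, at 1.56 and -1.61, lies in the lower right quadrant.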

How the data were processed

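The authors deposited linear intensity values, 1 for each probe set of each array, made with MAS5 (named in the submitters' processing notes, version and scaling not given in the sources used here). Detection calls were not used here. Probe sets naming 1 gene (34958 of 45101) were kept, gene names came from the platform annotation, and a gene with several probe sets (9012 of 18194) was read from the one whose signal averaged highest across the series. The 10913 genes whose average exceeded the 40th percentile were tested (lowest 68). Genes named from under that limit have values from a fit of all genes.

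The log2 values went into 1 limma fit (3.58.1, R 4.3.3) of 4 groups of 2, with a trended prior (4 residual and 7.37 prior degrees of freedom). Tests were two-sided with Benjamini-Hochberg adjustment at 0.05, and the models were compared by the difference of their contrasts. Exact permutation of 2 against 2 arrays cannot go under p = 0.333 and was not used. The number of arrays limits the precision. Groups came from source names. The method was tested on simulated data. The gene lists (48 by hand, 30 by symbol), the named-gene rule and the comparison itself were chosen with earlier results of these data known. Every called gene could be named, with array values for the 15 largest rises and falls, as could list members that passed, the 4 members with the smallest p of a list with no call, other probe sets and check genes. Other genes, among them Acta2, Myl7, Myh6, Tbx5, Tnnt2 and Slc4a1, were chosen after their values were seen. Promoter windows are RefSeq's. Alternatives changed the scaling, the filter, the choice of probe set, the fit, embryo sex, a block and the arrays used. Python 3.11.15 and pandas 2.3.3 made the summaries.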

Additional observations from a re-analysis of the deposited data

Results flagged for a closer look

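For 18 of the named genes the change in EC-N1ICD differed from that in EC-Rbpj-KO, each against its own wild type, in the test of the difference itself (limma contrast, adjusted p under 0.05). Toward a higher value in EC-N1ICD the differences on the log2 scale were 3.75 for Npr3, 3.17 for Sox11, 2.91 for Vwf, 2.61 for Abcb1b, 2.50 for Vegfc, 2.33 for Dusp4, 2.25 for Fbn2, 2.18 for Amacr, 2.06 for Col14a1, 2.04 for Gucy2c, 1.67 for Abca1, 1.64 for Dusp6, 1.39 for Rac1 and 1.33 for Nrarp. Of these Abcb1b, Abca1, Dusp4 and Dusp6 had negative log2 fold changes in both models, of -0.85, -0.53, -0.94 and -0.63 in EC-N1ICD and of -3.45, -2.20, -3.28 and -2.27 in EC-Rbpj-KO, so the difference is one of size. Toward a lower value they were -3.39 for Rgs18, -2.88 for Mpo, -2.57 for Calml4 and -2.33 for Oit3. The groups of each model were from different crosses, and the strain of the crosses differs between them. Wild type signals in the EC-N1ICD set and the other set were unlike for several of these genes. Examples are Amacr (136 and 114 against 981 and 934) and Gucy2c (71 and 69 against 932 and 834). The same held for Abcb1b (386 and 556 against 1662 and 1509) and Abca1 (1168 and 1236 against 3054 and 2891). Wild type Npr3 (80 and 41 against 212 and 101), Vegfc (239 and 138 against 66 and 71) and Oit3 (473 and 331 against 178 and 139) were also unlike. Npr3, Sox11, Vwf, Vegfc and Col14a1 were picked by the study on these samples for opposite changes in the models. In EC-Rbpj-KO itself the log2 fold changes of Npr3 (-0.94) and Vegfc (-0.47) did not pass the test. With embryo sex as a term, which rests on the EC-Rbpj-KO arrays, 71 genes differed in place of 29.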

How the results depend on the processing

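The count of 65 genes is moved by scaling, filter and fit. It was 27 with a filter at the 60th percentile (15 rose, 12 fell), 105 with median centring (49 fell), 119 with quantile normalization (70 rose, 49 fell), 103 with the 4 arrays of the set alone (42 fell), 15 with embryo sex as a term (6 rose, 9 fell), and 15 fell with the mean of all probe sets. By the plain test that the methods name, on the 4 arrays, 939 genes passed unadjusted (546 rose, 393 fell) and 0 after Benjamini-Hochberg adjustment, with 1309 at an unadjusted p under 0.05 from limma. Leaving out 1 array of the series in turn gave 7 to 140 genes (5 to 82 rose, 2 to 58 fell), where a lone array is assumed to vary like the other groups. The size rule gave 314 genes without a filter, 72 with the stricter one and 343 over single probe sets, and 186 to 300 with 1 array left out. The count of genes that differed between models was 11 with the mean of probe sets, 44 with median centring, 3 without trend, 71 with sex as a term and 5 to 80 with 1 array left out. Calls that rose were 53.3% of all with median centring and 40% with sex as a term, against 63.1%. The first number of each title sets replicate 1 of either mutant apart from the other 3 arrays of its set, for a reason the labels do not give. With that number as a replicate block, an alternative chosen after the data were seen in which replicate 1 of each mutant carries no weight, 26 genes changed (14 rose, 12 fell) and 18 differed between models. The cause of these shifts was not tested.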
